A study of Mus musculus with 8 samples.

Results

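The genes described here are the negative feedback genes of the ERK pathway and the PEA3-type ETS factors that report its activity: the dual-specificity phosphatases Dusp1, Dusp4, Dusp5 and Dusp6, the Sprouty genes Spry1, Spry2 and Spry4, the Sprouty-related Spred1, and Etv4 and Etv5. They were taken by symbol, with every probe that carried it, from arrays on which 13406 genes were tested. Of the 10 genes, 9 had a probe under their symbol, 15 probes in all, and Dusp5 was not analysed here. A total of 12 probes passed the filter on dim signal (above background on 2 arrays or more, in either channel), and these measured 8 genes. Both Spry4 probes stayed below that level in both channels on all 8 arrays, so Spry4 has no ratio to report.

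The cells were LLC1, a lung carcinoma line of C57BL/6 mice, grown in culture and harvested 4 h after X-rays. The regimens were 2 Gy given at once (3 arrays), 10 Gy given at once (2 arrays, the other replicate of this dose not being analysed here) and 5 fractions of 2 Gy, 10 Gy in total, called 5x2 Gy (3 arrays). Each 2-colour array carried RNA of irradiated cells in Cy5 and RNA of untreated LLC1 cells in Cy3, so every value is a log2 ratio of irradiated over untreated cells and a positive value means higher after irradiation. The labels call the replicates biological. The dyes were never exchanged, so a dye effect of a probe cannot be told apart from an effect of irradiation against untreated cells, and the interval between fractions is not given in the sources used here. RNA per cell and the mix of cells cannot be told apart in such samples, which come from 1 line.

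ERK is switched on by growth factor receptors through Ras, Raf and MEK. It then raises transcription of its own inhibitors, so the RNA of these genes is widely used as a readout of pathway output. Sprouty and Spred proteins act high in the cascade, on the step from receptor to Ras and Raf, while dual-specificity phosphatases take the activating phosphates off the MAP kinases themselves. Etv4 and Etv5 are transcription factors whose RNA also follows growth factor signalling in many tissues.

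The arrays differed in ways that touch the values below. The 10 Gy replicate 1 array had a standard deviation of all log2 ratios of 0.69, against 0.33 to 0.46 on the other 7 arrays. Its correlation with 10 Gy replicate 2 across genes was 0.427, whereas 10 Gy replicate 2 had correlations of 0.748 to 0.854 with the 5x2 Gy arrays; genes are not independent replicates. The image names placed the arrays on 2 slides, slide 1 with the 3 arrays of 2 Gy and 10 Gy replicate 1, and slide 2 with 10 Gy replicate 2 and the 3 arrays of 5x2 Gy. Slide and regimen are thus largely the same split, and only the 10 Gy arrays lie on both slides. For the feedback genes, the 10 Gy values are therefore given for each array and with either array left out. With 1 left out, the 10 Gy value rests on a lone array whose spread is taken from the other regimens. Only its size is therefore given. For pathway genes the values of both 10 Gy arrays are given where a 10 Gy mean is reported and they lay over 0.5 apart. As a check of the treatment, Ccng1, a p53 target, rose in all 3 regimens, by 1.12, 2.00 (arrays at 1.55 and 2.44) and 1.64 on the log2 scale after 2 Gy, 10 Gy and 5x2 Gy. The p53 targets Cdkn1a and Mdm2 rose after 10 Gy (arrays at 3.73 and 1.47 for Cdkn1a, 2.90 and 1.38 for Mdm2) and 5x2 Gy (means of 1.27 and 0.67). Neither passed after 2 Gy (means of 0.88 and 0.48, adjusted p of 0.088 and 0.18). Of the epithelial markers Krt8, Krt18 and Krt19 were above background on all 8 arrays while Epcam and Cdh1 were above it on none. Of the mesenchymal markers, Vim and Fn1 were above background on all 8 arrays, Col1a1 in irradiated cells of 0 and untreated cells of 7 arrays, and Pdgfra in irradiated cells of 3 and untreated cells of 2. The pan-leukocyte marker Ptprc and the endothelial marker Pecam1 were above background on none, while the leukocyte markers Cd68 and Cd3e were so in the untreated cells of all 8.

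Across the 8 measured feedback genes, each tested on its brightest probe, the response was not uniform. On these probes Spry1 and Spred1 fell, Dusp6 and Etv5 rose after fractionated dose, and the rest did not pass in any regimen. Other probes of Spred1, Dusp4 and Etv5 gave different results, as described below. After 2 Gy none of the 8 was called higher and none lower, at a Benjamini-Hochberg adjusted p under 0.05 in limma (1 of 8 had an unadjusted p under 0.05, as did 33.1% of all genes), where 8.97% of all genes tested were called higher and 7.93% lower. After 10 Gy 0 of 8 were called higher and 2 of 8 lower, against 12.4% and 15.8% of all genes. After 5x2 Gy 2 of 8 were called higher and 2 of 8 lower, against 17.6% and 23.4% of all genes. The median log2 ratio of the 8 genes was 0.07 after 2 Gy, -0.13 after 10 Gy and 0.07 after 5x2 Gy, beside medians of 0.00, -0.06 and -0.02 over all genes tested. For Dusp1, Dusp6, Etv5 and Etv4 the sign after 10 Gy depended on which 10 Gy array was left out. Without replicate 1 and without replicate 2 in turn, Dusp1 was at -0.45 and 1.34, and Dusp6 at 0.41 and -0.36. Etv5 was at 0.18 and -0.74, and Etv4 at 0.52 and -0.07. With 8 genes, the counts above lie near the background shares, so the results rest on the single genes below and not on the group.

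**Figure D1:**
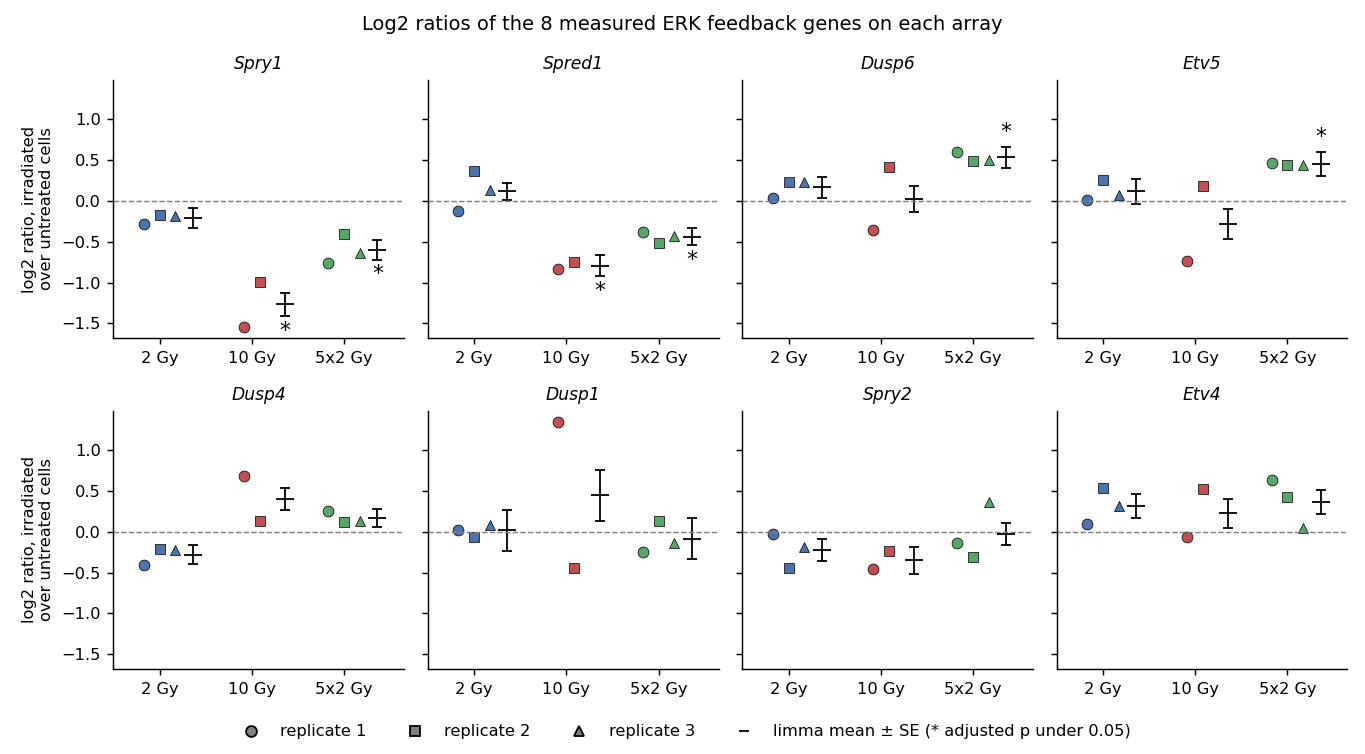
Log2 ratio of irradiated over untreated cells (y axis) for the 8 measured genes under 2 Gy, 10 Gy and 5x2 Gy (x axis), with 1 point per array, the marker shape giving the replicate number, and the limma mean with its SE as a bar to the right of the points. The Spry1 and Spred1 points of 10 Gy lie lowest, the Dusp6 and Etv5 points of 5x2 Gy lie between 0.44 and 0.60, and the 10 Gy arrays lie far apart for Dusp1, Etv5 and Dusp6.

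Among the receptor-level inhibitors, Spry1 fell the most. Its gene lies on chromosome 3 (chr3:37639947-37644599, RefSeq, GRCm38.p6; the array files name no genome build). Sprouty 1 is a cytoplasmic and membrane protein that blocks the route from growth factor receptors to ERK and is itself induced by it. The log2 ratios of Spry1 were -0.28, -0.17 and -0.19 on the 2 Gy arrays, -1.54 and -0.99 on the 10 Gy arrays, and -0.76, -0.41 and -0.64 on the 5x2 Gy arrays. All 8 arrays lay below 0 and the 3 regimens did not overlap. The mean was -1.27 ± 0.144 (SE, n = 2) after 10 Gy, a 2.41-fold fall against untreated cells with an adjusted p of 0.00053. After 5x2 Gy it was -0.60 ± 0.118 (SE, n = 3), a 1.52-fold fall with an adjusted p of 0.0037. The 2 Gy mean of -0.21 had an adjusted p of 0.24 and a 95% interval of -0.47 to 0.05. Without 10 Gy replicate 1 the 10 Gy value was -0.99, and without 10 Gy replicate 2 it was -1.54.

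The untreated channel of Spry1 was steady while the irradiated channel moved. Its normalized log2 signal in irradiated cells was 9.76, 9.98 and 9.87 on the 2 Gy arrays, 8.72 and 9.23 on the 10 Gy arrays and 9.46, 9.81 and 9.45 on the 5x2 Gy arrays, against 10.04 to 10.25 in untreated cells over all 8 arrays. Every Spry1 spot was above background in both channels, so both sides of each ratio were measured. No second probe carried the symbol Spry1, so its fall could not be compared between probes.

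Spred1, which brings neurofibromin to the membrane and so lowers Ras activity, fell on its brightest probe. Its gene spans chr2:117121071-117182279 (GRCm38.p6). The log2 ratios of that probe were -0.13, 0.36 and 0.13 on the 2 Gy arrays, -0.84 and -0.75 on the 10 Gy arrays, and -0.38, -0.51 and -0.43 on the 5x2 Gy arrays. The 2 Gy arrays straddled 0, all 10 Gy and 5x2 Gy arrays lay below it, and the regimens did not overlap. The 10 Gy mean of -0.79 ± 0.128 (SE, n = 2) was a 1.73-fold fall with an adjusted p of 0.0022, and the 5x2 Gy mean of -0.44 ± 0.104 (SE, n = 3) was a 1.36-fold fall with an adjusted p of 0.009. Without 10 Gy replicate 1 the 10 Gy value was -0.75, and it was -0.84 without 10 Gy replicate 2. In a fit of the 10 Gy arrays alone it did not pass, with an adjusted p of 0.17. The 5x2 Gy call was lost with slide as a random block (adjusted p of 0.23) and without 5x2 Gy replicate 2 (0.064) or replicate 3 (0.053).

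The other probes of Spred1 did not show that fall. The second gave 0.13, 0.02 and 0.23 on the 2 Gy arrays, -0.67 and 0.11 on the 10 Gy arrays, and 0.21, 0.25 and 0.33 on the 5x2 Gy arrays. The third gave -0.76 on 10 Gy replicate 1, where neither channel was above background, and 0.24 on 10 Gy replicate 2. On the 5x2 Gy arrays it was above background in untreated cells alone, so its ratios there have only a bound. Neither was called in any comparison of a regimen with untreated cells, and with the mean of the 3 probes the 5x2 Gy value of Spred1 was 0.00 (adjusted p of 0.99). The fall of Spred1 after 5x2 Gy is thus a result of 1 probe. After 10 Gy the mean of the 3 probes was -0.44 with an adjusted p of 0.04.

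**Figure D2:**
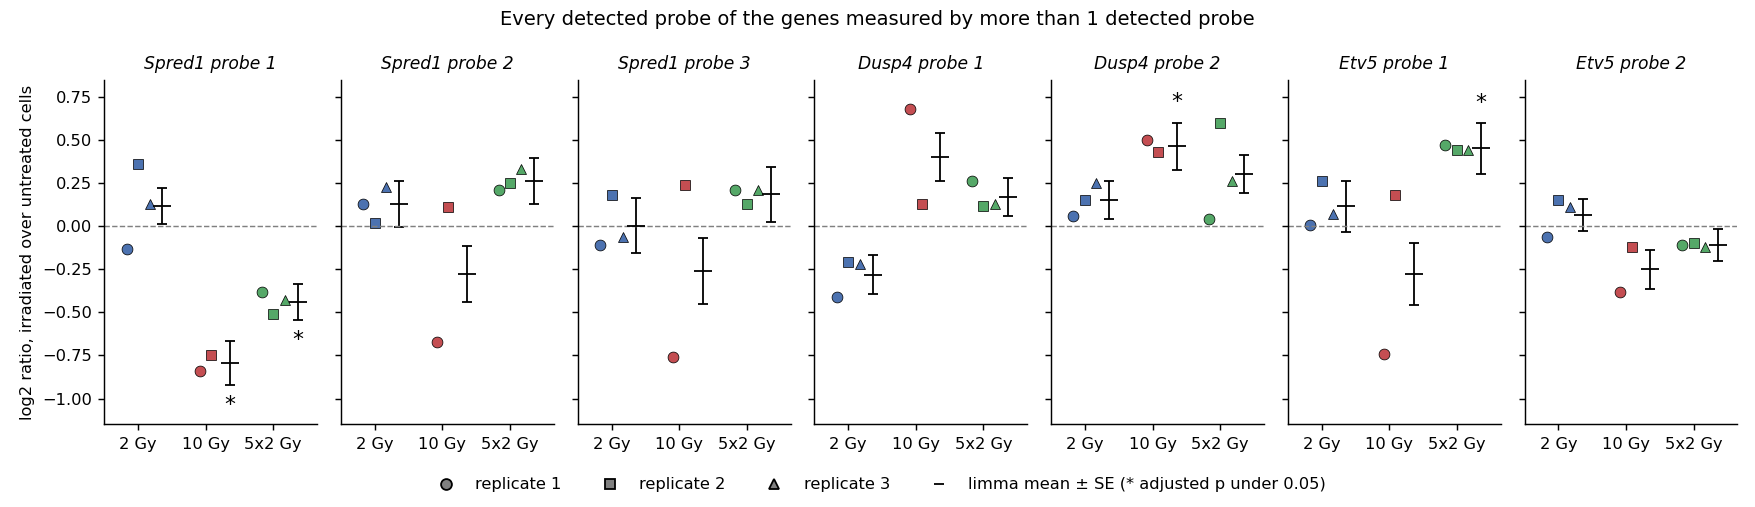
Log2 ratio of irradiated over untreated cells (y axis) by regimen (x axis) for each detected probe of Spred1, Dusp4 and Etv5, numbered by brightness, with 1 point per array and the limma mean with its SE. Spred1 probe 1 lies below 0 on all 10 Gy and 5x2 Gy arrays while probes 2 and 3 lie above 0 after 5x2 Gy; probe 3 was not above background in the irradiated cells of the 5x2 Gy arrays, nor Etv5 probe 2 in those of 2 of them.

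The promoters of Spry1 and Spred1 are shown because these were the genes called lower in both regimens of 10 Gy in total. The windows run from 250 bases before to 50 bases after the RefSeq start (GRCm38.p6; Spry1 chr3:37639697-37639996 and Spred1 chr2:117120821-117121120, both plus strand).
Spry1: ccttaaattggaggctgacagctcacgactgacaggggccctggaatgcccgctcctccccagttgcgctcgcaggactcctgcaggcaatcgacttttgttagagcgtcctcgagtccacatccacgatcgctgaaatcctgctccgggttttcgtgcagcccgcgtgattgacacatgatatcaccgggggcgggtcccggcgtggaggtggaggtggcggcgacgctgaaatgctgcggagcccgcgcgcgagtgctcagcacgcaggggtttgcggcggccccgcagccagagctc
Spred1: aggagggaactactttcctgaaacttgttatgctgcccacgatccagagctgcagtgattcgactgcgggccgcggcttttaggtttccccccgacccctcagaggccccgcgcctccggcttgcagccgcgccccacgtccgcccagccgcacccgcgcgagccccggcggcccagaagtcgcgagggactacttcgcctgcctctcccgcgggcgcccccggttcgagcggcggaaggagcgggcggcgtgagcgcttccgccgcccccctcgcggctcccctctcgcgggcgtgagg
Both strands were searched for TGACGTCA (the cyclic AMP response element), for its core TGACG, for the ETS motif CCGGAAG, for the AP-1 motif TGANTCA, for the CArG box bound by serum response factor and for the decamer of the p53 response element. Neither window held a match, and no letter is therefore in capitals. The core TGACG was present in 20.8% of 32851 promoter windows of that length, CCGGAAG in 8.86%, the p53 decamer in 8.36% and TGANTCA in 7.81%. The windows of Spry1 and Spred1 were 64.3% and 72.3% G or C, beside a median of 52.7% over all windows.

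Spry2, the close relative of Spry1, did not pass in any regimen. The gene lies at chr14:105891947-105896819 (GRCm38.p6). Its brighter probe gave -0.03, -0.45 and -0.19 on the 2 Gy arrays, -0.46 and -0.24 on the 10 Gy arrays and -0.14, -0.31 and 0.37 on the 5x2 Gy arrays. The regimens overlapped, and the means were -0.22, -0.35 and -0.03, with adjusted p-values of 0.29, 0.15 and 0.89. The 10 Gy value was -0.24 without replicate 1 and -0.46 without replicate 2. The other Spry2 probe was above background in irradiated cells of 10 Gy replicate 1 alone.

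Dusp6, the cytoplasmic phosphatase that acts on ERK itself, rose after fractionated dose. Its gene lies at chr10:99263231-99267489 (GRCm38.p6). The log2 ratios were 0.04, 0.23 and 0.23 on the 2 Gy arrays, -0.36 and 0.41 on the 10 Gy arrays, and 0.60, 0.49 and 0.50 on the 5x2 Gy arrays. The 5x2 Gy arrays lay above all others, and the 10 Gy arrays had opposite signs. The 5x2 Gy mean of 0.53 ± 0.132 (SE, n = 3) was a 1.45-fold rise with an adjusted p of 0.011. The scanner flagged the Dusp6 spot on both 10 Gy arrays, with a meaning that the sources used here do not give, and the 10 Gy mean of 0.02 had an adjusted p of 0.92. Alone, 10 Gy replicate 2 gave 0.41, and 10 Gy replicate 1 gave -0.36. The 5x2 Gy call was lost with slide as a block (0.15, adjusted p of 0.34), with median pixel signals (adjusted p of 0.063) and on leaving out any of the 5x2 Gy arrays (adjusted p-values of 0.071, 0.053 and 0.056 without replicates 1, 2 and 3).

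The Dusp6 promoter is given because the gene is the standard RNA readout of ERK output and was called higher (chr10:99262981-99263280, plus strand, GRCm38.p6). It held none of the motifs listed above.
Dusp6: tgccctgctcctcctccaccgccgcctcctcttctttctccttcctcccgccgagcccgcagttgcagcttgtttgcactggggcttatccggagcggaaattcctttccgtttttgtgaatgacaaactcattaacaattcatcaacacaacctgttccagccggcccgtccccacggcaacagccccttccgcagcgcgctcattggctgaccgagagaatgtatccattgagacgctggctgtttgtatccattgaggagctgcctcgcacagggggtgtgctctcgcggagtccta

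Dusp4, a nuclear phosphatase of ERK (chr8:34807610-34819894, GRCm38.p6), was not called on its brightest probe, yet its values separated 2 Gy from the other regimens. The log2 ratios were -0.41, -0.21 and -0.22 on the 2 Gy arrays, 0.68 and 0.13 on the 10 Gy arrays and 0.26, 0.12 and 0.13 on the 5x2 Gy arrays. All 2 Gy arrays lay below 0 and all others above it. The means of -0.28, 0.40 and 0.17 had adjusted p-values of 0.11, 0.056 and 0.25. The 10 Gy value was 0.13 without replicate 1 and 0.68 without replicate 2. The second probe gave 0.06, 0.15 and 0.25 after 2 Gy, 0.50 and 0.43 after 10 Gy and 0.04, 0.60 and 0.26 after 5x2 Gy, all of them above 0. On that probe Dusp4 rose after 10 Gy, with a mean of 0.46 ± 0.136 (SE, n = 2) and an adjusted p of 0.031 over all probes kept. The probes thus gave 10 Gy values of one sign and 2 Gy values of opposite sign. The untreated channel was low on 10 Gy replicate 1 for both probes. On the brightest probe the untreated log2 signal there was 10.62, against 11.24 to 11.49 on the other 7 arrays, and on the second it was 9.19, against 9.83 to 10.22. The irradiated signal of the brightest probe on that array was 11.29, within the range of 11.02 to 11.70 seen on the other 7, so its ratio of 0.68 came with a low signal in untreated cells. On the second probe the irradiated signal there was also the lowest, at 9.68 against 10.10 to 10.65 on the other 7 arrays.

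Dusp1, an immediate early gene whose nuclear phosphatase acts on p38, JNK and ERK, gave opposite values on the 10 Gy arrays. The gene lies at chr17:26505591-26508472 (GRCm38.p6). Its log2 ratios were 0.02, -0.06 and 0.08 on the 2 Gy arrays, 1.34 and -0.45 on the 10 Gy arrays and -0.25, 0.13 and -0.14 on the 5x2 Gy arrays. The 10 Gy mean of 0.45 ± 0.312 (SE, n = 2) had an adjusted p of 0.31, and the 2 Gy and 5x2 Gy means of 0.02 and -0.08 had adjusted p-values of 0.97 and 0.81. Here it was the irradiated channel that stood apart: its log2 signal was 11.07 on 10 Gy replicate 1 and 9.15 to 9.79 on the other 7 arrays, against 9.43 to 9.74 in untreated cells over all 8. Without 10 Gy replicate 1 the 10 Gy value was -0.45, and without replicate 2 it was 1.34. The direction of Dusp1 after 10 Gy is therefore not settled by these arrays.

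**Figure D3:**
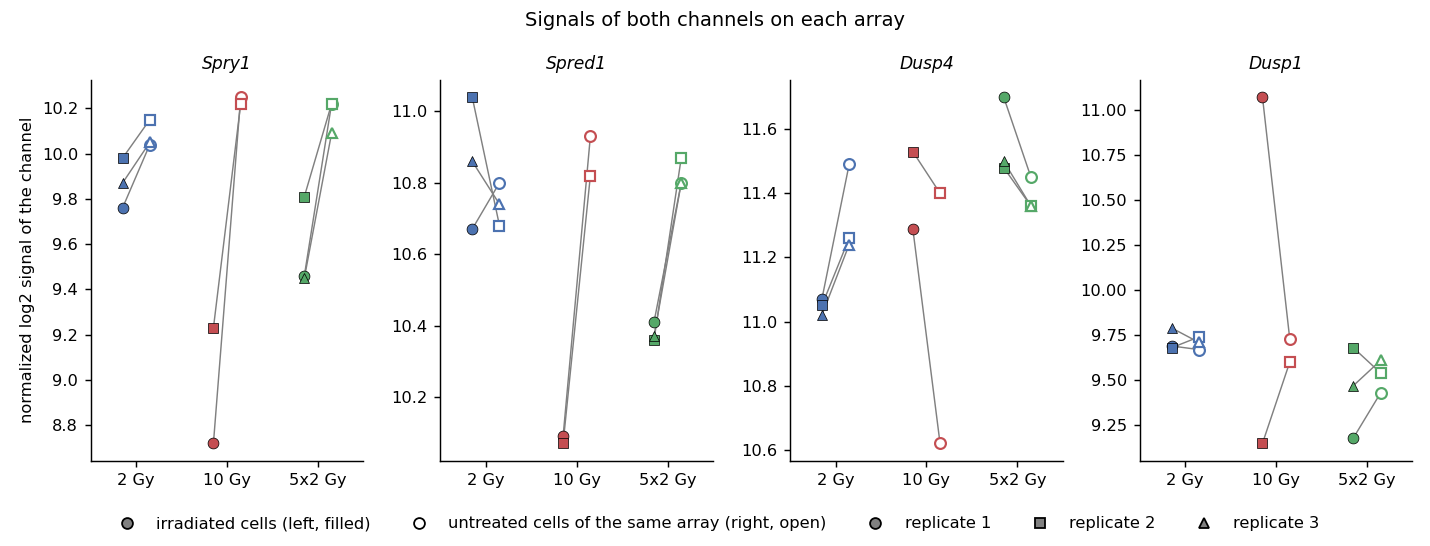
Normalized log2 signal (y axis, a separate scale for each gene) of irradiated cells (filled, left) and of untreated cells on the same array (open, right), joined by a line, for Spry1, Spred1, Dusp4 and Dusp1 by regimen (x axis). For Spry1 the irradiated cells lie as low as 8.72 while untreated cells stay between 10.04 and 10.25; for Dusp4 the untreated cells of 10 Gy replicate 1 lie lowest, at 10.62; for Dusp1 the irradiated cells of that array lie highest, at 11.07.

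The Dusp1 promoter is shown because it was the only window, of those at hand for the measured genes, that held a searched motif (chr17:26508423-26508722, minus strand, GRCm38.p6). Capitals mark the core TGACG and the full TGACGTCA, which contains it on both strands.
Dusp1: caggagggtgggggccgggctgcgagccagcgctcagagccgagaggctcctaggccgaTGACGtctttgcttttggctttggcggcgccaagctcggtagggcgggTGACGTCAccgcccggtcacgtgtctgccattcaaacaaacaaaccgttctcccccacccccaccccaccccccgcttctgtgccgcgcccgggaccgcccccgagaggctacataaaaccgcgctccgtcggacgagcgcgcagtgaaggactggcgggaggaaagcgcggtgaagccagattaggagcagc
The full element lies from 143 to 136 bases before the start and was present in 1.79% of all windows, and the further core lies from 191 to 187 bases before the start. A match of letters is a description of the window and says nothing of binding in these cells.

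Of the ETS factors, Etv5 rose after fractionated dose on its brighter probe. Etv5 (chr16:22381313-22439570, GRCm38.p6) gave 0.01, 0.26 and 0.07 on the 2 Gy arrays, -0.74 and 0.18 on the 10 Gy arrays, and 0.47, 0.44 and 0.44 on the 5x2 Gy arrays. The 5x2 Gy arrays were tightly grouped above all others, and the 10 Gy arrays had opposite signs. The 5x2 Gy mean of 0.45 ± 0.148 (SE, n = 3) was a 1.37-fold rise with an adjusted p of 0.035. The 10 Gy mean of -0.28 had an adjusted p of 0.28, and the value was 0.18 without replicate 1 and -0.74 without replicate 2. The second probe gave -0.11, -0.10 and -0.12 on the same 3 arrays, below background in irradiated cells on 2 of them, and the mean of both probes was 0.17 with an adjusted p of 0.24. The call was lost with slide as a block (-0.01, adjusted p of 0.97), with scaling between arrays (adjusted p of 0.081) and on leaving out any array of 2 Gy or 5x2 Gy (adjusted p of 0.052 to 0.13).

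Etv4 (chr11:101769747-101785310, GRCm38.p6), another PEA3-type factor, had mostly positive values that did not pass. They were 0.10, 0.53 and 0.31 on the 2 Gy arrays, -0.07 and 0.52 on the 10 Gy arrays and 0.63, 0.43 and 0.04 on the 5x2 Gy arrays, and the regimens overlapped. The means were 0.31, 0.22 and 0.37, with adjusted p-values of 0.17, 0.38 and 0.073. The 10 Gy value was 0.52 without replicate 1 and -0.07 without replicate 2. Its spot was flagged on 3 of the arrays, 2 Gy replicate 2 and 5x2 Gy replicates 2 and 3.

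Between regimens, Spry1 and the brightest Spred1 probe were lower after 10 Gy than after 2 Gy. Of the 8 genes 0 were called higher and 2 lower in this comparison, where 1.04% of all genes were called higher and 1.52% lower. Spry1 averaged -1.27 after 10 Gy and -0.21 after 2 Gy, a difference of -1.06 ± 0.186 (SE; 95% interval -1.47 to -0.64) with an adjusted p of 0.031. Spred1 averaged -0.79 after 10 Gy and 0.12 after 2 Gy, a difference of -0.91 ± 0.165 (SE; 95% interval -1.28 to -0.54) with an adjusted p of 0.033. On slide 1 alone, 10 Gy replicate 1 lay below the 2 Gy mean by a difference of -1.33 for Spry1 and -0.96 for Spred1. Without 10 Gy replicate 1 the differences were -0.78 and -0.87, and these compare arrays of different slides. Neither difference passed in fits that left out any of the 2 Gy or 5x2 Gy arrays (adjusted p of 0.064 to 0.14), nor with replicate number as a block (adjusted p of 0.078 for Spry1 and 0.11 for Spred1), with scaling between arrays (0.094 and 0.082) or in a fit of the compared arrays alone (0.19 each). With the mean of its probes the Spred1 difference was -0.53 (adjusted p of 0.14), and its dimmer probes gave -0.41 and -0.26 (adjusted p of 0.31 and 0.60).

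Fractionation made no difference that passed the test for these genes. In 5x2 Gy against 10 Gy, which compares the same total dose, 0 of 8 were called in either direction by limma, as were 0% of all genes, and 3 of 8 had an unadjusted p under 0.05 beside 16.7% of all genes. The genes with an unadjusted p under 0.05 were Spry1, Etv5 and Dusp6, each on its tested probe. The second Etv5 probe differed by 0.14 (adjusted p of 0.61). Spry1 differed by 0.67 (95% interval 0.25 to 1.08, adjusted p of 0.20), Etv5 by 0.73 (0.20 to 1.26, adjusted p of 0.22) and Dusp6 by 0.51 (0.04 to 0.98, adjusted p of 0.27). On slide 2 alone, where the comparison rests on 10 Gy replicate 2, these differences were 0.39, 0.27 and 0.13. Leaving out 10 Gy replicate 2 gave 0.94, 1.19 and 0.89. In 5x2 Gy against 2 Gy 0 of 8 were called by limma, against 0.38% of all genes higher and 0.925% lower, and 3 of 8 had an unadjusted p under 0.05, as did 25.6% of all genes. On the brightest probes, the largest differences there were -0.56 for Spred1 (95% interval -0.89 to -0.23, adjusted p of 0.072) and 0.45 for Dusp4 (0.09 to 0.81, adjusted p of 0.13). The other Spred1 probes gave 0.135 and 0.181 (adjusted p of 0.67 and 0.63), and the second Dusp4 probe gave 0.149 (0.57). All of these comparisons share arrays with one another.

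The genes most alike to Spry1 across the 8 arrays by Pearson's r were Hoxd10 (0.993), Sertad4 (0.987) and Enah (0.985). Those most alike to Spred1 were Daxx (0.982), Lig1 (0.979) and Nsdhl (0.976), and those most alike to Dusp4 were Marchf2 (0.989), Tmbim4 (0.985) and Pxdc1 (0.98). These are the top of the 13406 genes tested, once predicted and clone names were left out. With 8 points each, they are a description with no test. All of them share the arrays, 10 Gy replicate 1 with its wide spread included.

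The wider pathway also moved in both directions. Among the other MAP kinase phosphatases (5 of 6 tested) 2 fell and 0 rose after 2 Gy, 0 moved after 10 Gy and 1 fell after 5x2 Gy. Dusp8, a phosphatase of p38 and JNK, was at -1.11 ± 0.167 after 2 Gy (adjusted p of 0.0035) and -0.61 ± 0.167 after 5x2 Gy (adjusted p of 0.017; SE, n = 3 each). Its other detected probes gave 0.08 and 0.24 after 2 Gy, and 0.54 and -0.07 after 5x2 Gy, the 0.54 being called higher (adjusted p of 0.0051). The fall is thus that of its brightest probe, and the direction of Dusp8 after 5x2 Gy depends on the probe. Dusp2, a nuclear phosphatase of ERK, fell after 2 Gy (-0.53, adjusted p of 0.044), and its second probe gave -0.54.

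Among the other inhibitors of receptor and Ras signalling (7 of 9 tested) 1 fell after 2 Gy, 3 fell after 10 Gy, and 2 fell and 1 rose after 5x2 Gy. Errfi1, an inhibitor of the EGF receptor kinase, fell in all 3 regimens, by 0.93, 1.10 and 0.56 on the log2 scale after 2 Gy, 10 Gy and 5x2 Gy. It lay below 0 on all 8 arrays, between -1.30 and -0.47. Nf1, the neurofibromin that Spred1 recruits, rose after 5x2 Gy (0.59 ± 0.129, adjusted p of 0.006). Il17rd (also known as Sef), which holds back FGF signalling, had probes called in opposite directions after 5x2 Gy: its brightest fell (-0.39, adjusted p of 0.024), another rose (0.51, adjusted p of 0.029), and the remaining one gave -0.23. Rasa1, a Ras GTPase activator, and Lrig1, which lowers ErbB receptor levels, fell after 10 Gy (-0.71 and -0.57). Rasa1 was at -1.32 and -0.10 on the 10 Gy arrays.

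Of the other genes known as transcriptional output of ERK (13 of 15 tested), 1 rose after 2 Gy, 1 rose and 1 fell after 10 Gy, and 2 rose and 4 fell after 5x2 Gy. Etv1, a further PEA3-type factor, rose by 1.01 after 2 Gy and 1.38 after 5x2 Gy (adjusted p of 0.018 and 0.0018). Its arrays lay between 0.88 and 1.48 except 10 Gy replicate 1 at -0.64. Epha2, an ephrin receptor, rose by 1.03 after 10 Gy (arrays at 1.36 and 0.70) and 0.58 after 5x2 Gy and was higher after 10 Gy than after 2 Gy (1.00, adjusted p of 0.038). After 5x2 Gy the immediate early factor Egr1 fell by 0.89, Ier3 by 0.43 and Plaur, the urokinase receptor, by 0.65. Maff fell by 0.53 after 10 Gy, with -0.87 and -0.19 on its arrays.

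Among growth factor ligands (7 of 12 tested) 1 fell after 2 Gy, 3 rose after 10 Gy, and 1 rose and 1 fell after 5x2 Gy. Pdgfa rose by 1.92 ± 0.203 after 10 Gy (SE, n = 2; arrays at 2.37 and 1.46; adjusted p of 0.00043) and by 0.59 after 5x2 Gy, where its second probe gave 0.06. Areg, a ligand of the EGF receptor, rose by 1.00 after 10 Gy (arrays at 1.35 and 0.64) and the brightest probe of Nrg1, a ligand of ErbB receptors, by 0.50, where its other probe gave 0.34 (adjusted p of 0.29). Areg was also higher after 10 Gy than after 2 Gy (1.37, adjusted p of 0.022), as was Pdgfa (1.55, adjusted p of 0.028). Hbegf, another ligand of the EGF receptor, fell by 1.14 after 2 Gy and 0.94 after 5x2 Gy, and gave -0.05 and -1.20 on the 10 Gy arrays.

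Of the receptors (8 of 10 tested), 1 rose after 2 Gy, 2 rose and 1 fell after 10 Gy, and 3 rose after 5x2 Gy. The brightest Egfr probe rose by 0.69 after 10 Gy and 0.48 after 5x2 Gy, and Erbb3 rose in all 3 regimens (0.43, 0.44 and 0.33). The other detected Egfr probes gave 0.21 to 0.98 after 10 Gy and 0.20 to 0.61 after 5x2 Gy. The lowest of them did not pass in either regimen (adjusted p of 0.18 and 0.099). The highest was also called higher after 2 Gy (0.56, adjusted p of 0.011). Met, the receptor of hepatocyte growth factor, fell after 10 Gy (-0.86, adjusted p of 0.016), with -1.42 and -0.30 on its arrays. Of the adaptors and the Ras to ERK cascade, all 20 were tested: 4 fell after 2 Gy, 1 rose and 5 fell after 10 Gy, and 5 fell after 5x2 Gy. Hras rose after 10 Gy (0.76, adjusted p of 0.013), with 1.19 and 0.33 on its arrays. Sos2, which loads Ras with GTP, fell by 0.81 after 10 Gy, with -1.20 and -0.42 on its arrays. The brightest Braf probe fell by 0.82 after 10 Gy, with -1.40 and -0.24 on its arrays, while the other detected Braf probes gave -0.20 to 0.05 (adjusted p of 0.30 to 0.78). In the p38 and JNK cascades, all 10 tested, 1 fell after 2 Gy, 3 fell after 10 Gy, and 3 rose and 4 fell after 5x2 Gy. Map2k4, which activates JNK, fell by 0.54 after 10 Gy and 0.46 after 5x2 Gy, and Map2k6, which activates p38, rose by 0.55 after 5x2 Gy. These shares are read against the background percentages given above, and the lists share the arrays, dyes and slides of the feedback genes.

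**Figure D4:**
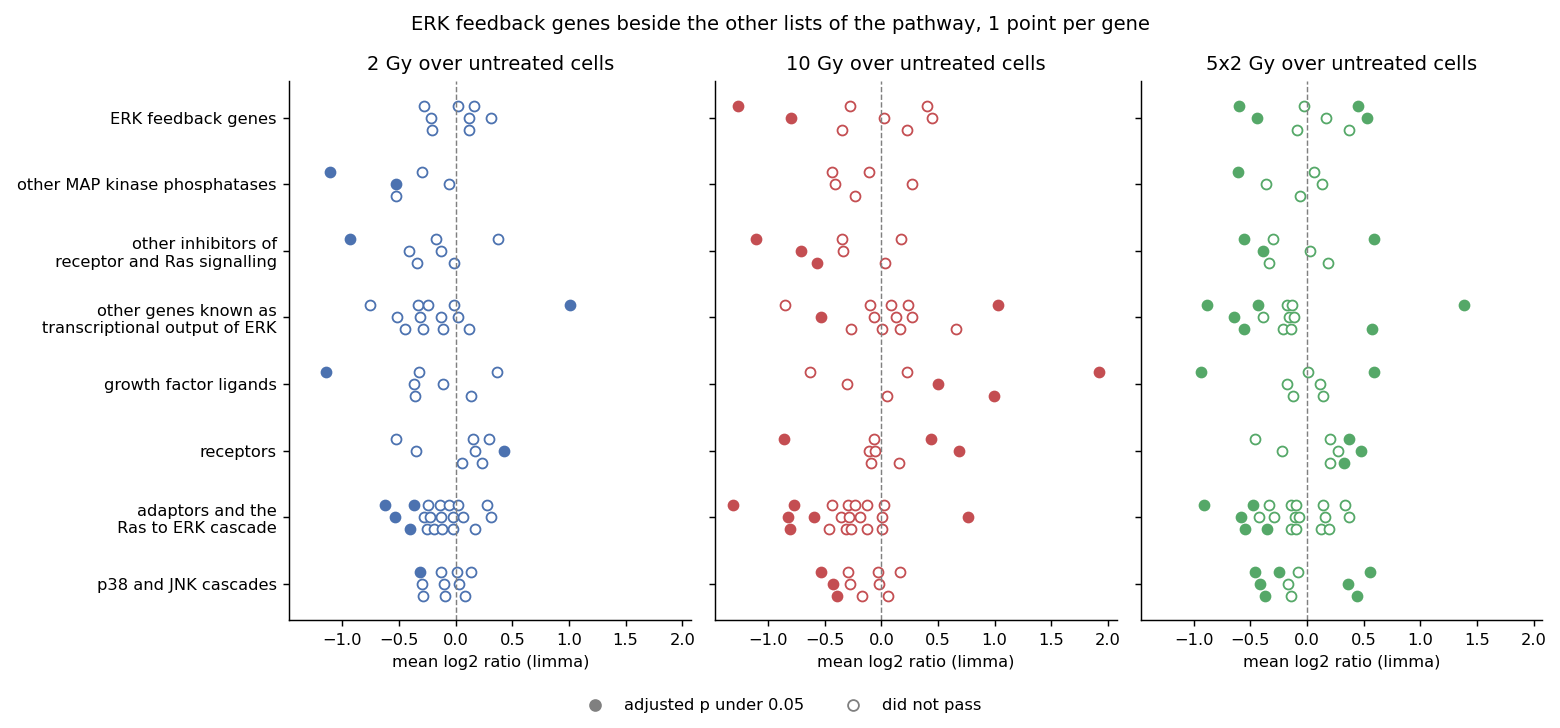
Mean log2 ratio of irradiated over untreated cells (x axis, limma) of every tested gene of each list (rows), with 1 panel for each regimen and 1 point per gene, filled where the adjusted p was under 0.05. Filled points lie on both sides of 0 in several lists, with Pdgfa at 1.92 after 10 Gy farthest to the right.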

How the data were processed

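RNA of irradiated and untreated LLC1 cells was compared on 8 arrays of 45220 spots. Per the file headers, the deposited scanner files hold an intensity (mean and median pixel signal) for each spot and channel from ImaGene, with no background column and with nothing normalized by the authors. The authors' deposited matrix has Cy5 over Cy3 values as log2 ratios, which matched loess-normalized ratios of the same arrays and served as an alternative. In R 4.3.3 with limma 3.58.1, normexp with an offset of 50 was applied to the mean foreground signals, and loess was fitted per array, giving control spots a weight of 0. A probe was kept if a channel exceeded the median of 153 negative controls by 2.6 robust standard deviations on at least 2 arrays, which left 21689 of 41174 probes. The brightest kept probe of a symbol was tested, with 1 mean per regimen, lmFit, eBayes and Benjamini-Hochberg adjustment over 13406 genes. Probes of a gene were also fitted singly. Levels of a channel are its loess-normalized values after Aquantile scaling. Intensities carry no read depth, so the number of arrays limits the precision. A gene symbol was updated through RefSeq for 1588 probes. The fit was tested on simulated data. Replicate numbers were not used to pair the arrays in the main fit. Same-numbered deviations from the regimen means had correlations from -0.243 to 0.115. With so few arrays behind each mean, these values cannot decide whether the numbers pair the arrays. The feedback genes and the pathway lists were chosen with earlier results of these data known. Pathway genes named are those called against untreated cells, up to 6 per list by smallest p, and 1 gene that meets this is not reported here. Alternatives changed the background correction, normalization, source, spot summary, filter, probe rule, slide or replicate block, arrays fitted, each array left out and, chosen after seeing the data, flagged spots. Promoters and gene positions are from RefSeq (GRCm38.p6).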

Additional observations from a re-analysis of the deposited data

Results flagged for a closer look

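Dusp4 had ratios of opposite sign in different regimens on its brightest probe, above 0 on all arrays of 10 Gy and 5x2 Gy and below 0 on all arrays of 2 Gy. The difference was 0.68 for 10 Gy against 2 Gy and 0.45 for 5x2 Gy against 2 Gy. In limma these differences did not pass, with adjusted p-values of 0.077 and 0.13, and the second Dusp4 probe lay above 0 on all 8 arrays.

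Spry1 and the brightest Spred1 probe differed between 10 Gy and 2 Gy by the test of the difference itself. The difference of 10 Gy against 2 Gy was -1.06 for Spry1 (adjusted p of 0.031) and -0.91 for Spred1 (adjusted p of 0.033). Spry1 lay below 0 on all 8 arrays, and Spred1 lay below 0 on both 10 Gy arrays and on 1 of 3 arrays of 2 Gy. Neither passed without any of the 2 Gy or 5x2 Gy arrays (adjusted p of 0.064 to 0.14), with the replicate block (0.078 and 0.11), with scaling between arrays (0.094 and 0.082) or in a fit of the compared arrays alone (0.19 each), and with the mean of its probes the Spred1 difference was -0.53 (adjusted p of 0.14).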

How the results depend on the processing

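The feedback genes called numbered 0 after 2 Gy, 2 after 10 Gy, 4 after 5x2 Gy, 2 for 10 Gy against 2 Gy, and 0 for 5x2 Gy against 2 Gy and against 10 Gy. No background correction, normexp with offset 0, the series matrix, median pixel signals, no filter and leaving out flagged spots kept these counts within 1.5 times. Median centring with no loess gave 2 after 2 Gy (26.9% of all genes called), 4 after 10 Gy (29.1%) and 1 for 5x2 Gy against 2 Gy (5.56%), and shifted the median of all genes to 0.13 after 2 Gy and to -0.13 for 5x2 Gy against 2 Gy. Counts over all genes moved too, as given in percent. Scaling between arrays gave 1 after 2 Gy (30.7%) and 0 for 10 Gy against 2 Gy (0.201%), and the mean of kept probes gave 2 after 5x2 Gy (40.5%) and 1 for 10 Gy against 2 Gy (2.22%). With slide as a block the counts were 5 after 2 Gy (33.3%), 5 after 10 Gy (48.6%), 6 for 10 Gy against 2 Gy (32%) and 3 for 5x2 Gy against 2 Gy (17.7%). With slide as a random block they were 1 after 5x2 Gy (6.07%) and 5 for 10 Gy against 2 Gy (21.6%). With the replicate block 0 were called for 10 Gy against 2 Gy (0%), and no other count changed. Fits of the compared arrays alone gave 2 after 2 Gy (35.9%), 1 after 10 Gy (2.09%), 0 for 10 Gy against 2 Gy (0%) and 5 for 5x2 Gy against 2 Gy (29.8%). Leaving out any 2 Gy or 5x2 Gy array gave 0 calls after 2 Gy (3.04% to 12.5% of all genes called). After 10 Gy it gave 0 higher and 2 lower (21.7% to 24.1%), and after 5x2 Gy 0 or 1 higher and 1 or 2 lower (22.4% to 37.9%). For 10 Gy against 2 Gy 0 were called (0% to 0.0373%), as for 5x2 Gy against 2 Gy and against 10 Gy (0%). Leaving out a 10 Gy array left 1 array of that dose, assumed to vary like the other regimens. Calls from such fits are not counted here. Without replicate 2 the 10 Gy values rested on replicate 1, the array with the wide spread. Of 1005 single values, 7 changed sign where one of the settings called them, and 42 more did so where neither did. Spred1 after 5x2 Gy was 0.00 with the mean of its probes. With slide as a block Dusp1 was -0.88 after 2 Gy, 0.81 after 5x2 Gy and 1.69 for 5x2 Gy against 2 Gy, and Etv5 was -0.01 after 5x2 Gy. Leaving out an array moved Dusp1 after 10 Gy between -0.45 and 1.34 and Dusp6 after 10 Gy between -0.36 and 0.41. Of all values, 895 stayed on their side of the threshold, 65 passed it and 38 lost it. The cause was not tested. Dim probes limit the third Spred1 and second Etv5 probe, and with flagged spots left out Dusp6 had no 10 Gy value.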
